A study of Mus musculus with 10 samples.

Results

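MicroRNAs numbered 1000 or higher in miRBase, the registry that numbers miRNAs in order of submission, are mostly later entries to the catalogue. The members were all rows of either deposited table whose name, with the species prefix removed, is miR- followed by a number of at least 1000. They are 170 of the 721 miRNAs listed in the 2 tables, 156 of 679 in the brown adipose tissue (BAT) table and 36 of 436 in the plasma table, and 22 members are in both. By number, 44 lie in the 1000s, 1 in the 2000s, 42 in the 3000s, 14 in the 5000s, 33 in the 6000s and 36 from 7000 upward. Small RNA had been sequenced from small extracellular vesicles of C57BL/6J mice in 10 libraries. There were 3 libraries of BAT vesicles and 2 of plasma vesicles from Sed mice, and 3 of BAT vesicles and 2 of plasma vesicles from Exe mice, where Exe is read as exercised and Sed as sedentary because the series describes samples before and after exercise. The labels give every sample, Sed included, the same regimen of 90 min sessions for 4 weeks, and they give no age or sex. Beyond the strain, the descriptions of the plasma samples carry the tag wt, read as wild type. Those of the BAT samples carry no such tag. No label says that the libraries of a group came from separate animals, so p-values speak only of the variation from library to library, which may be technical.

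A miRNA is a short RNA that guides an Argonaute protein to messenger RNAs, mainly through its seed, the bases near its 5′ end that pair with the target. The classical route cuts a hairpin out of a primary transcript with Drosha and then Dicer, and 1 arm of the hairpin is usually kept. Many later entries came from deep sequencing and use other routes: mirtrons are excised by the splicing machinery as short introns, and some small RNAs are processed from small nucleolar RNAs (snoRNAs), which guide the chemical modification of ribosomal RNA, or from their relatives in Cajal bodies (scaRNAs). Vesicles carry such small RNAs out of the cell, and adipose tissue is known as a source of circulating vesicle miRNAs.

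Mature sequences were taken from RefSeq (GRCm38.p6), which held an entry for 153 of the 170 members. They are shown 5′ to 3′ with the seed, bases 2 to 8, in capitals. The first set holds members that were higher in BAT vesicles of Exe mice, with miR-24-2-5p, which is encoded on the strand opposite miR-3074-2-3p.
miR-6538: cGCGGGCUccggggcggcg
miR-1249-3p: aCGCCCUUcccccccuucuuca
miR-3074-2-3p: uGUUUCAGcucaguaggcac
miR-24-2-5p: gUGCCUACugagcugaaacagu
In GRCm38, miR-6538 lies at chr12:26414970-26414988 on the minus strand, in an intron of Rnf144a, which encodes a ubiquitin ligase. miR-1249-3p lies at chr15:84951545-84951566 (minus), in an exon of a transcript of 5031439G07Rik. miR-3074-2-3p lies at chr8:84208839-84208858 (minus) with no other gene on its strand, and miR-24-2-5p at chr8:84208839-84208860 on the plus strand. All 20 bases of miR-3074-2-3p are the reverse complement of bases within the 22 of miR-24-2-5p.

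The second set holds members whose genes overlap a snoRNA or scaRNA gene.
miR-1291: aUGGCUCUuacugaagacuagcaguu
miR-5121: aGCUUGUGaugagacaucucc
miR-1839-5p: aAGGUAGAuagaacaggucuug
miR-3068-5p: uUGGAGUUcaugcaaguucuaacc
miR-1843a-5p: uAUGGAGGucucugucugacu
miR-1843b-5p: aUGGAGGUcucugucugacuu
miR-1291 lies at chr15:98519828-98519853 (minus), within Snora34, a snoRNA gene in an intron of Kansl2. miR-5121 lies at chr7:45126925-45126945 (minus), within Snord33 in the ribosomal protein gene Rpl13a. miR-1839-5p lies at chr7:81529919-81529940 (plus), where GENCODE M21 types the Mir1839 gene itself as a scaRNA, and miR-3068-5p at chr12:87437724-87437747 (minus), in an intron of Alkbh1, where the Mir3068 gene is typed as a snoRNA. miR-1843a-5p lies at chr12:80391654-80391674 (minus), within Scarna3b in an intron of Dcaf5, and miR-1843b-5p at chr1:159340362-159340382 (plus), within Scarna3a in an intron of Cop1. Each of the last pair has 21 bases and they share a run of 20, shifted by a base, so their seeds differ but reads cut a base short cannot be assigned to either, and their separate counts are uncertain.

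The third set holds repeat-like members and the members that the plasma results turn on.
miR-3470b: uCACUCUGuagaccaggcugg
miR-3473b: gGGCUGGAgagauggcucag
miR-1198-5p: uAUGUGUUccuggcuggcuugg
miR-1983: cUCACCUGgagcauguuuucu
miR-7689-3p: uUAGAGCCagacugccuggguuu
miR-7019-3p: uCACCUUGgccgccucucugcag
miR-6991-3p: gCAGCCCUuuguucuucuccag
miR-3572-3p: uACACUUGuccuucuuuccccag
The exact letters of miR-3470b (chr16:44013885-44013905, plus) occur in annotated transcripts of 546 genes and those of miR-3473b (chr10:41670774-41670793, plus) in transcripts of 343, miRNA genes left out. miR-1198-5p lies at chrX:7807142-7807163 (plus), in an intron of Gripap1, and occurs in no other annotated transcript. miR-1983 lies at chr13:21896930-21896950 (minus) and miR-7689-3p at chr5:36301606-36301628 (plus), neither with another gene on its strand in GENCODE M21, the only gene annotation searched. miR-7019-3p lies at chr4:138316132-138316154 (minus), in untranslated sequence of Pink1, which encodes a mitochondrial quality-control kinase. miR-6991-3p lies at chr19:7422621-7422642 (plus), in an intron of 2700081O15Rik, and miR-3572-3p at chr7:3656010-3656032 (plus), in an exon of Cnot3. Throughout, a site counts as exonic where an exon of any annotated transcript overlaps it, even if other transcripts splice it out.

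Across the whole group, mature length was like that of the other listed miRNAs, with a median of 22 bases in both, but the range ran from 15 to 27 bases against 19 to 26. Base composition and transcript matches stood further apart. Median GC content was 54.5% in the 153 members with a sequence and 47.6% in 452 other miRNAs, and 51 members (33.3%) had at least 60% GC against 63 others (13.9%). An exact sense match in an annotated transcript outside miRNA genes was found for 66 members (43.1%) and 111 others (24.6%). Family membership ran the other way, since 8 members (5.23%) shared their seed with another listed miRNA against 141 others (31.2%). The members that share a seed with a miRNA numbered under 1000 were miR-1193-3p (with miR-370-5p), miR-1983 (miR-412-3p), miR-3102-5p (miR-702-5p), miR-6240 (miR-330-3p), miR-6921-5p (miR-423-5p) and miR-6967-5p (miR-149-3p). miR-6538 has the sequence richest in GC among the tested members with a RefSeq entry, at 94.7%.

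The annotation placed 159 members. Of these, 65 lie in an intron of a protein-coding gene on the same strand, 43 in an exon, 15 over a snoRNA or scaRNA gene, 7 in another RNA gene and 29 in none of these. The hairpin of 6 members fills a whole intron to within 5 bases, as in mirtrons, and 27 members have a mature end within 2 bases of an intron edge. Of those 27, 22 are in the BAT table, where 20 had 1 or 2 reads over the 6 libraries. miR-1981-5p, which lies in an intron of Marc2 and has a mirtron-like hairpin, had the most BAT reads among them, with 26. Of the 27, 7 are in the plasma table, with 716 reads in total, and 3 of those 7 had at least 100. The 15 over snoRNA or scaRNA genes were far better covered, with a median of 51 reads over the BAT libraries against 1.0 for the intronic and 1.0 for the exonic members.

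Members were mostly rare. In BAT vesicles 114 of 156 (73.1%) had under 5 reads over the 6 libraries, against 152 of 523 other miRNAs (29.1%), and 69 had 1 read. The median total was 2 reads against 19. A read in every BAT library was seen for 21 members (13.5%) and 269 others (51.4%), and 30 members had at least 10 reads in total. The arms of a hairpin were unequal where both were listed with many reads: miR-1839-5p had 309 BAT reads and miR-1839-3p 9, miR-3068-5p had 292 and miR-3068-3p 1, and miR-1249-3p had 78 and miR-1249-5p 2. The arms were closer for miR-1843b, with 73 reads of its 5p arm and 60 of its 3p arm, and equal for miR-1941, with 15 of each.

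**Figure D1:**
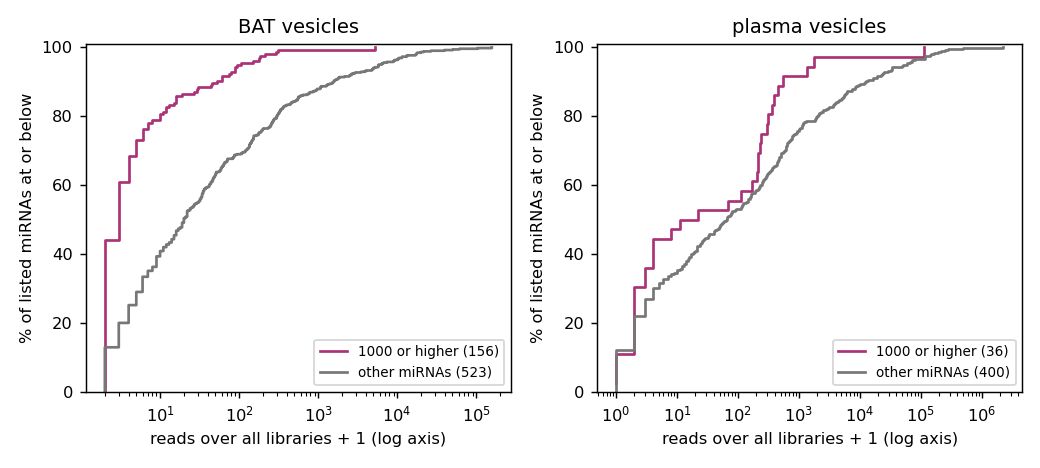
Share of listed miRNAs (y axis, percent) whose reads, summed over all libraries of a source, are at or below the value on the x axis (reads + 1, log axis), for members and for all other miRNAs. In BAT vesicles the curve of the members lies to the left, with 73.1% under 5 reads against 29.1%.

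The BAT libraries held 104064 to 172279 miRNA reads and the plasma libraries 1209116 to 1798169. The 4 miRNAs listed as brown fat markers (miR-193b-3p, miR-365-3p, miR-378a-3p and miR-455-3p) were all read in BAT vesicles. Together they took 6.52% to 22.8% of reads in Sed libraries, the lowest in replicate 2, which stands apart, and 22.9% to 29.8% in Exe libraries. In plasma vesicles the 5 red cell markers, miR-451a among them, took 52.8% to 70.0% of reads in Sed and 12.5% to 14.04% in Exe libraries, with miR-144-5p and miR-486a-3p without a read in the Sed libraries. Brown fat markers took 0.0265% to 0.500% in plasma, where miR-455-3p had no read. The part of these shifts in the results below was not tested.

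Members took 0.521%, 0.616% and 0.734% of miRNA reads in the Sed BAT libraries and 1.96%, 0.952% and 0.971% in the Exe BAT libraries. All 3 Exe values lay above all 3 Sed values. The means were 0.624% ± 0.106 and 1.29% ± 0.576 (SD, n = 3 each), and the first Exe library was the highest. miR-6538 supplied 46.9%, 27.8% and 53.3% of member reads in Sed and 83.5%, 70.6% and 74.8% in Exe. Without miR-6538 and miR-1198-5p the members took 0.263%, 0.422% and 0.331% in Sed and 0.315%, 0.270% and 0.240% in Exe, and those groups overlapped. In plasma vesicles the members took 0.0843% and 0.0184% in Sed and 4.11% and 3.88% in Exe. miR-1198-5p supplied 94.98% and 93.997% of member reads in the Exe plasma libraries. Without those members the plasma shares were 0.00522% and 0.0172% in Sed and 0.206% and 0.233% in Exe, so the Exe libraries were higher with and without miR-1198-5p. The widest of the exact 95% binomial intervals on these shares ran from 1.88% to 2.04%, for Exe BAT replicate 1. The intervals, like the floors used below, cover counting error only, as PCR can copy a molecule many times.

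**Figure D2:**
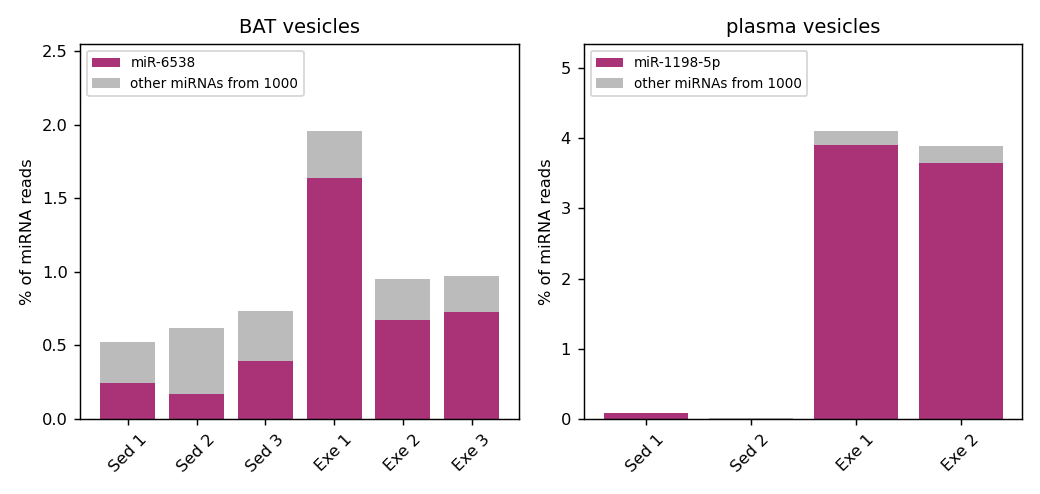
Share of miRNA reads (y axis, percent) taken by members in each library of BAT vesicles (left) and plasma vesicles (right). The coloured part of each bar is miR-6538 in BAT and miR-1198-5p in plasma, and it makes up most of the bar in each Exe library.

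Exe and Sed BAT vesicles were compared over all miRNAs with edgeR's quasi-likelihood test, and a miRNA was called at an adjusted p under 0.05. Filtering on low counts left 199 miRNAs, among them 15 of the 156 listed members, so 141 members were too rare to be tested. Of the 15, 5 were called (33.3%), 3 higher and 2 lower in Exe, where 45 of all 199 (22.6%) were called, 9.55% higher and 13.1% lower. The values of Sed and Exe libraries did not overlap for 9 of the 15 members and for 44.2% of all tested miRNAs. The median log2 fold change of the members was −0.17 and that of all tested miRNAs −0.06. By number, 8 tested members lay in the 1000s, 7 of them below 0, and 5 in the 3000s, 4 of them above 0. Of the 30 members listed in the 6000s 1 was tested, and of the 32 from 7000 upward 0. In these bulk vesicle pools, a change in the number of vesicles from a cell type and a change in the miRNA content of each vesicle cannot be told apart.

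miR-6538 was by far the most abundant member in BAT vesicles, with 414, 178 and 454 reads in the Sed libraries and 1907, 1067 and 1251 in the Exe libraries. All Exe libraries were above all Sed libraries, and by mean share of reads it moved from rank 44 to rank 20 of 679. Its mean level was 2714 ± 1404 CPM (counts per 1000000 miRNA reads, TMM-scaled) in Sed and 10509 ± 5361 in Exe (SD, n = 3 each). The log2 fold change was 1.95 ± 0.45 (SE; edgeR, adjusted p = 0.0151). The call was lost without Sed replicate 1 (1.94, adjusted p = 0.117) and without Exe replicate 1 (1.53, adjusted p = 0.0638), and was made in the other 12 of 14 alternatives. It is not listed in the plasma table.

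miR-1249-3p had 0, 5 and 4 reads in the Sed libraries and 16, 32 and 21 in the Exe libraries. The Exe libraries were all higher, at 160 ± 41.7 CPM against 24.7 ± 21.4 (SD, n = 3 each), with a log2 fold change of 2.76 ± 0.63 (edgeR, adjusted p = 0.0151). It was called in 13 of 14 alternatives. In plasma vesicles its 230 reads all came from Exe replicate 1.

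miR-3074-2-3p had 11, 5 and 9 reads in Sed against 19, 22 and 21 in Exe, again with no overlap. Its log2 fold change was 1.21 ± 0.37 (edgeR, adjusted p = 0.0423), and this was the least stable of the calls: it held in 3 of 14 alternatives, with DESeq2 giving an adjusted p of 0.0765 and limma-voom 0.0501. Among libraries left out in turn, the call remained only without Sed replicate 3 (adjusted p = 0.0494), and the other 5 gave adjusted p-values from 0.0518 to 0.11. The fold change stayed between 1.02 and 1.45. Its partner on the opposite strand, miR-24-2-5p, had 75, 87 and 49 reads in Sed against 42, 55 and 57 in Exe (log2 fold change −0.55 ± 0.25, edgeR, adjusted p = 0.129), and the abundant arm, miR-24-3p, gave 0.68 ± 0.36 (adjusted p = 0.182). In plasma miR-3074-2-3p had 0 and 13 reads in the Sed pair against 188 and 0 in the Exe pair, and miR-24-2-5p had 1 and 61 in Sed and none in Exe. Both had reads in Sed replicate 2, and the library with most of the reads differed between them.

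Among the lower members, miR-1949 had 47, 54 and 39 reads in the Sed libraries and 18, 9 and 9 in the Exe libraries. Every Exe library was lower, at 91.0 ± 57.5 CPM against 355 ± 52.9 (SD, n = 3 each), and the log2 fold change was −2.005 ± 0.40 (edgeR, adjusted p = 0.0107). GENCODE types its gene as a snoRNA, and RefSeq held no mature entry. miR-1291 had 24, 35 and 19 reads in Sed against 9, 9 and 9 in Exe, which is 197 ± 58.6 and 64.7 ± 12.1 CPM. Its log2 fold change was −1.61 ± 0.36 (edgeR, adjusted p = 0.0139). Both calls were lost without Exe replicate 3 (adjusted p = 0.0764 for miR-1949 and 0.0954 for miR-1291), with fold changes of −1.62 and −1.41. The filter on low counts passed miR-1949 and miR-1291 through their Sed libraries, and miR-1249-3p and miR-3074-2-3p through their Exe libraries. It thus favoured calls in the directions found. With no filter, miR-3074-2-3p lost its call, and miR-1249-3p, miR-1949 and miR-1291 kept theirs.

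**Figure D3:**
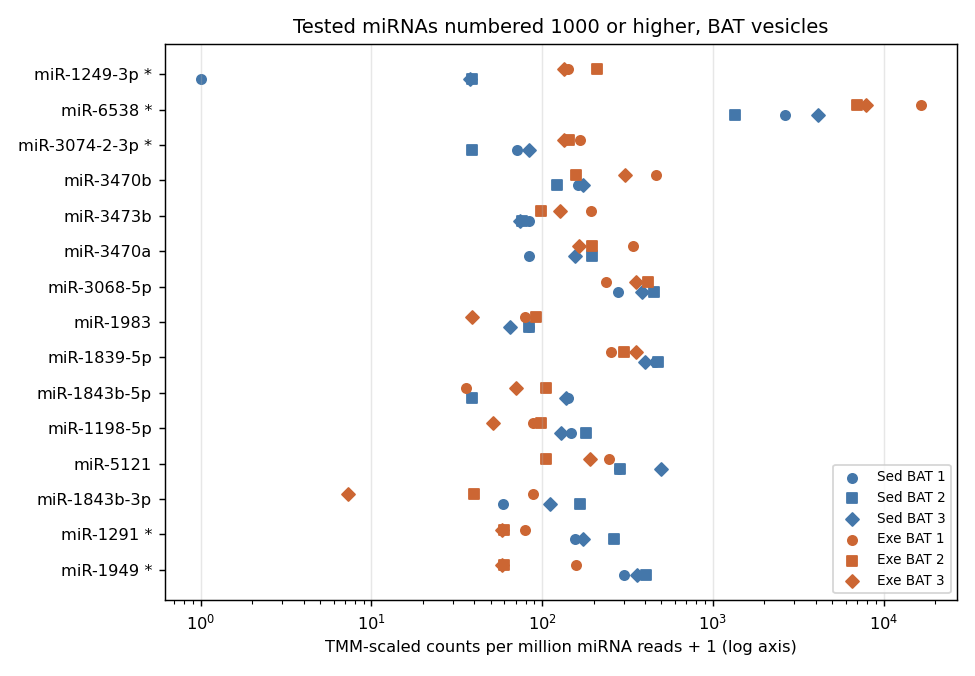
Level of each tested member in each BAT library (x axis, TMM-scaled CPM + 1, log axis), ordered by fold change. Blue points are Sed and orange points Exe libraries, the shape gives the replicate, and an asterisk marks the 5 called members, whose Sed and Exe points do not overlap.

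The 10 other tested members were not called. miR-5121, the member within Snord33, had 44, 38 and 54 reads in Sed against 28, 16 and 30 in Exe, without overlap on the CPM scale (log2 fold change −0.98 ± 0.37, edgeR, adjusted p = 0.0827), and it was called only without Sed replicate 2 (−1.04, adjusted p = 0.0413). miR-1198-5p had 23, 24 and 14 reads in Sed against 10, 15 and 8 in Exe (−0.96 ± 0.36, adjusted p = 0.0766). miR-1839-5p had 71, 63 and 44 reads in Sed against 29, 46 and 56 in Exe (−0.55 ± 0.24, adjusted p = 0.127). These 3 were lower in every Exe library than in any Sed library on the CPM scale, and none passed the threshold.

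The 3 tested members of the miR-3470 and miR-3473 families all had values above 0. The letters of miR-3470b and miR-3473b recur across transcripts, as those of short interspersed repeats do, so that reads of these miRNAs and of fragments of longer transcripts cannot be told apart from the counts. miR-3470b had 25, 16 and 19 reads in Sed against 53, 24 and 48 in Exe (log2 fold change 1.01 ± 0.40, edgeR, adjusted p = 0.0967). It was called without Exe replicate 2 (1.34, adjusted p = 0.0333) and with the library totals implied by the RPM values (1.17, adjusted p = 0.037). miR-3470a had 13, 26 and 17 reads in Sed against 39, 30 and 26 in Exe (0.68 ± 0.41, adjusted p = 0.233), with overlap. miR-3473b had 13, 10 and 8 in Sed against 22, 15 and 20 in Exe (0.81 ± 0.36, adjusted p = 0.128), without overlap on the CPM scale.

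The remaining uncalled members overlapped between groups. miR-1843b-3p had 9, 22 and 12 reads in Sed against 10, 6 and 1 in Exe (log2 fold change −1.39 ± 0.67, edgeR, adjusted p = 0.152), and miR-1843b-5p had 22, 5 and 15 in Sed against 4, 16 and 11 in Exe (−0.55 ± 0.53, adjusted p = 0.474). miR-3068-5p had 43, 60 and 42 in Sed against 27, 64 and 56 in Exe (−0.13 ± 0.30), and miR-1983 had 13, 11 and 7 against 9, 14 and 6 (−0.17 ± 0.41), each with an adjusted p of 0.782. Both of those fold changes are small beside their errors, and both changed sign under some alternatives.

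By genomic context, the 7 tested members over snoRNA or scaRNA genes (miR-1291, miR-1839-5p, miR-1843b-3p, miR-1843b-5p, miR-1949, miR-3068-5p and miR-5121) all had fold changes below 0, with a median of −0.98. Over all 199 tested miRNAs 104 were below 0 and the median was −0.06. With the library totals implied by RPM, 6 of the 7 were below 0 and miR-3068-5p was above. Of the 7, 2 were called lower, against 13.1% of all tested, and with Exe replicate 3 left out 0 of 8 were called. Counting all 15 listed members of this class, tested or not, they took 0.171%, 0.286% and 0.217% of miRNA reads in the Sed libraries and 0.115%, 0.121% and 0.111% in the Exe libraries. The 3 Exe shares were closely alike and all below the Sed shares (0.225% ± 0.0580 and 0.116% ± 0.00479, SD, n = 3 each). Per 1000000 reads of the totals implied by RPM the class had 14.2, 14.1 and 12.3 reads in Sed against 7.08, 9.89 and 10.1 in Exe, also without overlap. The class was defined with the fold changes of some members known, so these counts are a description. The Sed library with the highest share, replicate 2, is also the one with the lowest share of brown fat markers, and the part of vesicle source in these values was not tested.

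**Figure D4:**
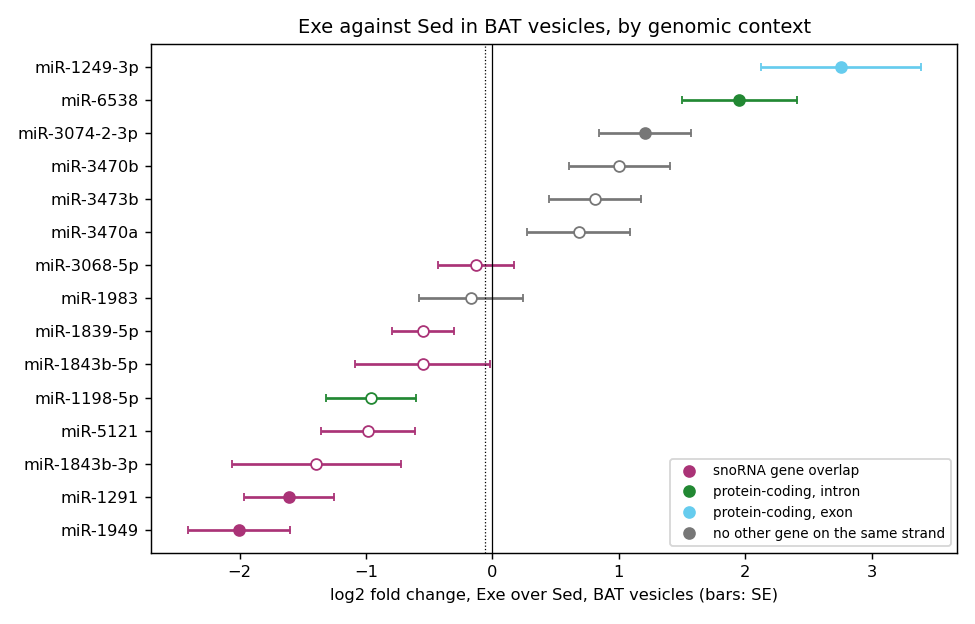
log2 fold change of Exe over Sed in BAT vesicles (x axis; bars are the SE) for the 15 tested members, coloured by genomic context. Filled points are called members, the solid line marks 0 and the dotted line the median of all 199 tested miRNAs, and the 7 members over snoRNA or scaRNA genes (key: snoRNA gene overlap) all lie below 0, though miR-3068-5p was above 0 with the totals implied by RPM.

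Among the members too rare for the test, 15 had at least 10 reads over the 6 BAT libraries, and for 5 of these the shares of reads did not overlap between groups, 1 higher and 4 lower in Exe. Among all 140 untested miRNAs with as many reads, 27.1% did not overlap, 15 higher and 23 lower. miR-3535, which overlaps a snoRNA gene in the nucleolin gene Ncl, had 11, 10 and 13 reads in Sed against 1, 9 and 7 in Exe. miR-3965 had 9, 8 and 5 in Sed against 0, 3 and 4 in Exe. miR-5099 had 5, 4 and 5 in Sed against 0, 1 and 3 in Exe. miR-2137 had 3, 5 and 3 in Sed against 1, 2 and 1 in Exe. miR-1843a-3p was the member with higher shares in Exe, with 2, 1 and 1 reads in Sed against 3, 2 and 5. With 3 libraries against 3, an exact permutation test of such shares cannot give a two-sided p below 0.1, which each of the 5 reached. The 7 members in the Dlk1-Dio3 interval of chromosome 12, an imprinted miRNA cluster, had at most 9 BAT reads each and were not tested. Among them miR-3071-3p had 2, 3 and 0 reads in Sed against 2, 1 and 1 in Exe, while miR-136-5p on the opposite strand fell by 2.93 ± 0.32 on the log2 scale (edgeR, adjusted p = 0.000838).

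In plasma vesicles 7 of the 36 listed members passed the filter, and 0 were called, as were 0 of all 182 tested miRNAs (0.0%; edgeR). At an unadjusted p under 0.05 there were 2 members and 60 of all 182 (33.0%). DESeq2 called 1 member, miR-1198-5p, among 57 miRNAs, and limma-voom called 1, miR-7689-3p, among 40. Of the 7, 6 had values above 0. The median log2 fold change was 3.75 against 0.32 for all tested, and the groups did not overlap for 4 of the 7 and for 59.3% of all tested. With 2 libraries a group, an exact permutation test cannot go below a two-sided p of 0.333.

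miR-1198-5p dominated. It had 1061 and 21 reads in the Sed plasma libraries and 47182 and 64483 in the Exe plasma libraries, or 0.0791% and 0.00117% of miRNA reads against 3.90% and 3.65%. Both Exe libraries were far above both Sed libraries, which differed widely between themselves. The mean share was 0.0401% ± 0.0551 in Sed and 3.78% ± 0.177 in Exe (SD, n = 2 each), a ratio of 94.1, and by mean share it moved from rank 60 to rank 7 of 436. The log2 fold change was 5.61 ± 1.97 (edgeR, adjusted p = 0.115), and it missed the threshold. The adjusted p was 0.0106 with DESeq2, 0.0319 with library size alone and 1.18e-05 with the second value that the plasma table gives for each library. Leaving out Sed replicate 1 gave a fold change of 11.4 (adjusted p = 1.32e-12) and leaving out Sed replicate 2 gave 4.61 (adjusted p = 0.000298), in each case with a lone Sed library assumed to vary like the Exe pair. The table's second values for it were 908 and 10 in Sed and 34433 and 43194 in Exe, with the same order. Over all miRNAs the reads per second value were 3.31 and 21.4 in the Sed libraries and 1.41 and 1.64 in the Exe libraries, and for the members they were 1.23, 4.34, 1.35 and 1.45. By second values the members took 0.227% and 0.0905% in Sed and 4.30% and 4.38% in Exe, so the gap between the groups was narrower but of the same direction. The summed share of red cell markers was far lower in the same Exe libraries, but its members did not move together. miR-451a and miR-144-3p were lower (log2 fold change −3.03 and −1.57) and miR-486a-5p was higher (2.72), none of them called (edgeR). miR-144-5p and miR-486a-3p had reads in Exe plasma and none in Sed plasma. The summed share of leukocyte markers was higher in Exe (1.95% to 2.23% against 0.156% to 0.211%). The part of these markers in the result was not tested.

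The other 6 tested plasma members were uneven between replicates. miR-1839-5p had 2 and 70 reads in the Sed pair against 266 and 1040 in the Exe pair (log2 fold change 4.06 ± 2.27, edgeR, adjusted p = 0.27), and miR-1983 had 0 and 100 reads in the Sed pair against 571 and 1079 in the Exe pair (3.97 ± 2.68, adjusted p = 0.356). Both were higher in each Exe library than in either Sed library. miR-3068-5p had 12 and 51 reads in the Sed pair against 242 and 1 in the Exe pair (1.65 ± 2.61, adjusted p = 0.668), and miR-1843a-5p had 0 and 13 reads in the Sed pair against 159 and 0 in the Exe pair (3.51 ± 3.13, adjusted p = 0.479), like miR-3074-2-3p (3.75 ± 3.26, adjusted p = 0.47). Nearly all Exe reads of those 3 came from the first Exe library. The 3 members over snoRNA or scaRNA genes that were tested in plasma (miR-1839-5p, miR-1843a-5p and miR-3068-5p) all lay above 0, where the tested members of that class in BAT vesicles lay below 0; miR-3068-5p turned negative without Exe replicate 1 (−4.94). The summed share of the class in plasma was 0.00186% and 0.00756% in Sed and 0.0726% and 0.0589% in Exe. No member of this class was called in plasma.

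miR-7689-3p went the other way, with 24 and 43 reads in the Sed pair against 0 and 0 in the Exe pair. It passed the filter through its Sed libraries alone. The filter thus favoured a value lower in Exe, also for the limma-voom call. Set against a floor of 3 reads over the group, its share was at least 21.2-fold lower in Exe (edgeR, adjusted p = 0.0899). Its second values in the table were 2 and 3 in the Sed libraries, far below its reads, and on that scale the bound would be lower.

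A feature of the plasma members was reads confined to a library. Of the 36, 10 (27.8%) had at least 100 reads that all fell in 1 library, against 10 of 400 other miRNAs (2.5%), and in each case it was an Exe library. In Exe replicate 1 these were miR-5119 with 297 reads, miR-1249-3p with 230, miR-1970 with 216, miR-1843a-3p with 211 and miR-3572-3p with 111. In Exe replicate 2 they were miR-1969 with 557, miR-1191a with 450, miR-1964-3p with 387, miR-7019-3p with 362 and miR-6991-3p with 239. Their second values nearly equalled their reads, as 554 for the 557 reads of miR-1969 and 111 for the 111 of miR-3572-3p. Against the floor of 3 reads over the Sed group, the group share was at least 196-fold higher for miR-1969 and at least 39.0-fold higher for miR-3572-3p, the ends of the range. These bounds rest on read totals. Second values summed to 405717 and 84021 in the Sed libraries and to 858401 and 1078779 in the Exe libraries, and on that scale the bounds would be lower. For each of the 10, the other Exe library had no read. None of the 10 passed the filter. In BAT vesicles miR-1191a, miR-1964-3p, miR-1970 and miR-5119 had 1 to 3 reads in all, and miR-1969, miR-3572-3p, miR-6991-3p and miR-7019-3p are not listed there.

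**Figure D5:**
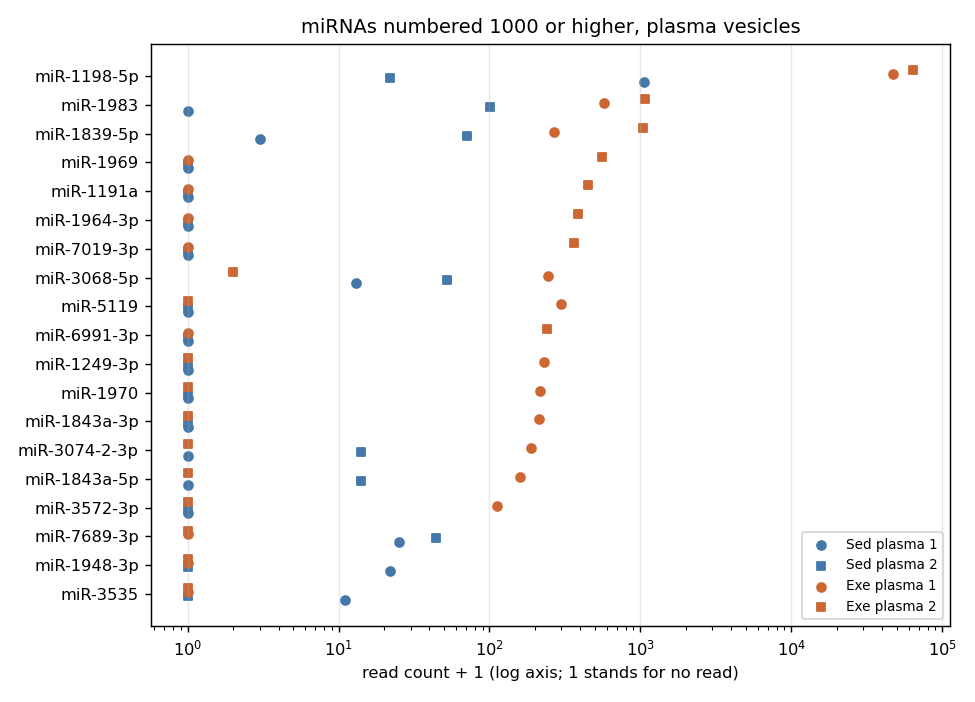
Reads of each member with at least 10 plasma reads in each plasma library (x axis, read count + 1, log axis, where 1 stands for no read). Blue points are Sed and orange points Exe libraries, and the shape gives the replicate. Many rows have 1 orange point above 100 reads and the other 3 libraries at no read.

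The 2 vesicle sources were compared in a joint fit of the 4 groups over miRNAs listed in both tables, in which the source of the vesicles cannot be told apart from the table or a batch. It tested 10 members among 234 miRNAs. In Sed mice 3 of the 10 were called, against 42.3% of all tested. miR-1981-5p, with 2, 7 and 7 reads in Sed BAT, had 0 and 0 reads in the Sed plasma libraries (edgeR, adjusted p = 0.0044), and it was called in all 13 alternatives that tested it. Those plasma libraries held more reads than the BAT libraries, but their second values summed to 405717 and 84021. miR-1981-5p, miR-1843b-5p and miR-3535 had few plasma reads and passed the filter through their BAT reads. The filter thus favoured a call higher in BAT for them, and the alternatives kept the same filter. miR-1843a-5p, which shares a run of 20 bases with miR-1843b-5p, had 15, 4 and 9 reads in Sed BAT and 0 and 13 in Sed plasma. How reads were assigned between these near copies in each source was not tested. miR-1843b-5p had 22, 5 and 15 reads in Sed BAT and 1 and 2 in Sed plasma (log2 difference 4.08 ± 1.05, adjusted p = 0.0116), and lost its call without Sed plasma replicate 1 (3.87, adjusted p = 0.0582). miR-1198-5p was lower in BAT (−3.88 ± 1.10, adjusted p = 0.0166), but its groups overlapped and without Sed plasma replicate 1 the value turned to 1.13 (adjusted p = 0.0927). It was called in 8 of 15 alternatives. The call was lost without Sed BAT replicate 1, 2 or 3 (adjusted p = 0.0688, 0.0567 and 0.0567), with library size alone (−1.30, adjusted p = 0.300) and with limma-voom (−1.76, adjusted p = 0.379).

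In Exe mice 5 of the 10 were called, against 66.7% of all tested. miR-1198-5p was lower in BAT vesicles (log2 difference, BAT minus plasma, −10.41 ± 1.42, edgeR, adjusted p = 0.000321), and it was called in all 15 alternatives. miR-1983 was also lower in BAT (−4.45 ± 1.44, adjusted p = 0.0198), and was called in 9 of 15 alternatives. That call was lost when Exe BAT replicate 1, 2 or 3 was left out (adjusted p = 0.0582, 0.0515 and 0.0687), with upper-quartile factors (−3.35, adjusted p = 0.0525) and with library size alone (−3.01, adjusted p = 0.0795). miR-1843b-5p and miR-3535 had reads in each Exe BAT library and none in Exe plasma (adjusted p = 0.00141 and 0.0115), and miR-3535 lost its call without Exe plasma replicate 2 (adjusted p = 0.0524). miR-1981-5p had 2, 5 and 3 reads in Exe BAT and 0 and 1 in Exe plasma (4.10 ± 1.04, adjusted p = 0.00725). As in Sed, the filter favoured the calls of miR-1843b-5p, miR-3535 and miR-1981-5p. The near copy miR-1843a-5p had 4, 10 and 3 reads in Exe BAT and 159 and 0 in Exe plasma. The separate counts of miR-1843b-5p are thus uncertain here too.

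The effect of group differed between the sources for 1 of the 10 members, miR-1198-5p, against 29.1% of all tested. The log2 fold change in BAT minus that in plasma was −6.53 ± 1.66 (edgeR, adjusted p = 0.0179). The separate fits gave −0.96 in BAT and 5.61 in plasma, neither of them called. Without Exe BAT replicate 3 the difference was −6.12 and missed the threshold (adjusted p = 0.0626). miR-1839-5p, with a difference of −3.67 ± 1.54, was not called (adjusted p = 0.0934).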

How the data were processed

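Vesicle RNA was isolated with Trizol and sequenced from standard Illumina libraries, per the labels. For each source the authors deposited 1 table of read counts, per the file headers. The BAT table also holds RPM values, as deposited, which equal the count divided by 1 total per library within 0.01, with totals of 18924916 to 21160759 reads. In the plasma table each deposited read count has a second whole-number count beside it, never larger, whose making is not stated. It was used only as an alternative. The submitters' processing notes name Bowtie 0.12.2 and the builds mm8 and mm9 without a role. For the counting program, miRBase release, trimming and strand setting, the sources used here say nothing.

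Counts were analysed as deposited in R 4.3.3 with edgeR 4.0.16 (TMM, filterByExpr, robust quasi-likelihood test, Benjamini-Hochberg adjustment over all miRNAs tested), 1 fit per source and 1 joint fit of the 4 groups. The SE is the log2 fold change over the square root of F. The alternatives were DESeq2 1.42.0, limma-voom (limma 3.58.1), library size alone, upper-quartile factors, a mean of at least 10 reads, no filter, the replicate number as a block, the totals implied by RPM, the second plasma values and each library left out. The joint fit omitted the filters and the RPM and second values. Fits were also run on simulated counts, and no result given here rests on those runs. Bounds use 3 reads over the group. Python 3.11.15, scipy 1.17.1 and matplotlib 3.10.9 served for exact tests, intervals and plots. Sequences came from RefSeq and gene context from GENCODE M21 (GRCm38). The 2-base intron-edge count was added after the data were seen.

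The members and lists were chosen with earlier results of these data known. Named are the members called in any fit or tested in either source, the examples given with the rule, the 10 with most reads per source, and those with a mean of at least 5 reads whose groups do not overlap. A few rarer members were named after their values were seen: miR-1843a-3p, miR-1970, miR-3572-3p, miR-3965, miR-5099, miR-3071-3p, miR-1941, the weaker arms and members that share a seed.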

Additional observations from a re-analysis of the deposited data

Results flagged for a closer look

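The fold change of miR-1198-5p between Exe and Sed differed between the sources: the value in BAT vesicles minus that in plasma vesicles was −6.53 on the log2 scale (joint edgeR fit, adjusted p = 0.0179). The separate fits gave −0.96 in BAT, with all 3 Exe libraries below all 3 Sed libraries, and 5.61 in plasma, with both Exe libraries above both Sed libraries, and neither passed the threshold alone. The source of the vesicles cannot be told apart from the table or a batch.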

How the results depend on the processing

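The counts of called members moved as follows. In BAT the 5 became 2 with the replicate block and 2 to 5 with a library left out, and stayed within 4 to 6 elsewhere. In plasma the 0 became 1 with DESeq2, library size alone, limma-voom or the second values, and 0 to 5 with a library left out. Without Exe plasma replicate 1, 5 were called, all with reads in the other Exe library alone (miR-1191a, miR-1964-3p, miR-1969, miR-6991-3p and miR-7019-3p). For BAT against plasma in Sed the 3 became 6 with library size alone, 1 with the block and 1 to 7 with a library left out; in Exe the 5 became 2 with the block and 4 to 13 with a library left out. For the difference between sources the 1 became 2 with DESeq2, upper-quartile factors or library size alone, and 0 to 6 with a library left out. The summed plasma share of members, as a log2 ratio of means, was 6.28, 4.77 with the second values and 5.57 to 7.77 with a library left out.

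With a library left out, fold changes ran from −0.30 to 0.12 (BAT) and −4.94 to 3.26 (plasma) for miR-3068-5p, from −0.25 to 0.25 for miR-1983 in BAT, and from −4.66 to 1.13 for miR-1198-5p in BAT against plasma in Sed. Signs turned for miR-3068-5p in BAT (0.11 without Sed replicate 2, 0.12 without Exe replicate 1, 0.13 with RPM totals) and in plasma (−0.94 with limma-voom, −0.95 with the block, −4.94 without Exe replicate 1). They also turned for miR-1983 in BAT (0.25 without Exe replicate 3, 0.016 with RPM totals) and for miR-1198-5p in BAT against plasma in Sed (1.13 without Sed plasma replicate 1). The cause was not tested.

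Whether replicate numbers pair the libraries is not known. Deviations of same-numbered Sed and Exe libraries from their group means correlated at 0.0042, −0.083 and −0.12 in BAT and −0.076 for each plasma pair. With so few libraries a group these values cannot exclude pairing, and the plasma values are equal by construction. With the replicate block (edgeR), miR-1249-3p (adjusted p = 0.0614), miR-1291 (0.0532) and miR-3074-2-3p lost their BAT calls. Of the calls between BAT and plasma, the block ended those of miR-1198-5p (0.109) and miR-1843b-5p (0.116) in Sed, and of miR-1981-5p (0.0591), miR-1983 (0.188) and miR-3535 (0.0537) in Exe. Scaling moved the median of all BAT fold changes from −0.06 to −0.19 (library size alone) and 0.11 (RPM totals). Depth limits most members: 141 of 156 could not be tested in BAT, and 2 plasma libraries a group leave SEs of 1.97 or more for the tested members.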
